A study of Homo sapiens with 9 samples.

Results

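The AP-1 and EGR immediate early genes were followed in HCT-15 cells, a human colorectal adenocarcinoma line, that had become tolerant of CoCl2 or of low glucose. The genes were chosen by name: FOS, FOSB, FOSL1 and FOSL2 of the FOS family, JUN, JUNB and JUND of the JUN family, the zinc finger factors EGR1 and EGR3, and IER3. EGR3 was not analysed here, so 9 of the 10 listed genes were followed, among 36018 genes counted, and all 9 were among the 17902 genes that passed the filter on low counts. RNA-seq was available for 3 groups of 3 libraries, all of the same line with its genotype labelled WT and kept in RPMI medium with 10% fetal bovine serum. The control cells had no treatment. The CoCl2-tolerant and the low-glucose-tolerant cells had each been raised in steps to a harsher medium until they tolerated it, so each tolerance is represented by 1 derived line, and a change in it cannot be told apart from a property of that line. The sources used here do not give the doses, the length of the selection, or whether CoCl2 or low glucose was still present at harvest. The labels do not say that replicate libraries are separate cultures, so the p-values below measure only how far these libraries spread, and that spread may be technical.

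AP-1 is a dimer of leucine zipper proteins in which a JUN protein pairs either with another JUN protein or with a FOS protein, and it binds DNA at sites shared by many genes of growth, invasion and inflammation. FOS, FOSB, EGR1 and IER3 are classic immediate early genes: their transcription rises within minutes of a growth factor or stress signal, through ERK and other MAP kinases, and their mRNAs are short-lived. FOSL1 and JUN are in addition held up by sustained ERK or JNK signalling, while JUND is present in resting cells. EGR1 is a zinc finger transcription factor, and IER3 is a small stress-induced protein tied to ERK signalling, NF-kappaB and cell survival.

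Stretches of 4 promoters are shown because FOS and EGR1 had the largest falls among the genes followed, while FOSB, with a core like that of FOS, fell less and JUND did the opposite. The sequences are from RefSeq on GRCh38.p14, written 5′ to 3′ on the gene's own strand, and capitals mark the motifs searched on both strands. Each stretch stops at the RefSeq start or the annotated gene, whichever comes first. That of FOS thus has 196 bases and leaves out its TATAAA letters, 33 bases before the RefSeq start. The FOS stretch is chr14:75278578-75278773 on the plus strand, that of EGR1 is chr5:138465229-138465478 on the plus strand, that of FOSB is chr19:45467746-45467994 on the plus strand and that of JUND is chr19:18281623-18281872 on the minus strand.
FOS: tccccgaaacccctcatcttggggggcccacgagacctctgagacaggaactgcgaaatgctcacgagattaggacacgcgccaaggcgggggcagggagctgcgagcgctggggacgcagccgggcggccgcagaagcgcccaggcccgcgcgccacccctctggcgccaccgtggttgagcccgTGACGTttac
EGR1: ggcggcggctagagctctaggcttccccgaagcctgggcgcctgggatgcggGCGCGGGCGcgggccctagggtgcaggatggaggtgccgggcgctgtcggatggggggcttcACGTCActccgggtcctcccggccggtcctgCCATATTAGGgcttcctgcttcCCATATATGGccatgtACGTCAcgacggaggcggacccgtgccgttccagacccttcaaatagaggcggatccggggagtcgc
FOSB: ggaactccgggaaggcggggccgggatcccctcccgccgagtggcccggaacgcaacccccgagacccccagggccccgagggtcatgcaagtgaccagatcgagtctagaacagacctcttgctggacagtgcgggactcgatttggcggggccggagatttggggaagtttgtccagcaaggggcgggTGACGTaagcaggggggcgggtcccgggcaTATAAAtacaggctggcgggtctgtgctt
JUND: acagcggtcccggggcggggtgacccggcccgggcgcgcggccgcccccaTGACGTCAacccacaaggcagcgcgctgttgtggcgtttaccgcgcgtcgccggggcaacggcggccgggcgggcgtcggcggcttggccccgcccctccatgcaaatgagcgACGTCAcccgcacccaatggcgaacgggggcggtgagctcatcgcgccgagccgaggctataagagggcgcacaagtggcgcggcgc
In RefSeq windows of 300 bases, from 250 before to 50 after the gene start, 7 of the 9 genes were matched. The core of the cAMP response element, TGACGT, was found with its first base 64 bases before the start in FOS, 60 before in FOSB and 66 before in FOSL2, and it was also found in JUND and in EGR1, where it lay 136 and 67 bases before the start. This core was in 7.98% of 35116 windows of all genes. Within these windows EGR1 alone of the 7 held a CArG box, the element bound by serum response factor. It lay at 105 and at 83 bases before the start, against 1.29% of all windows. EGR1 also held an EGR site, GCGNGGGCG, which was in 9.43% of all windows. The octamer TGACNTCA, which overlaps the core where its N is G, was found in JUN 67 bases before the start and in JUND 200 bases before it, against 7.72% of all windows. The AP-1 site TGANTCA was found in FOSL2 5 bases after the start, against 7.71% of all windows, and the TATA box letters TATAAA were found in FOS, FOSB and JUNB, against 11.5% of all windows. These are matches of letters in a window, and no binding was measured. Sites farther than 250 bases before a start were not searched, so a gene with no match here, such as FOS for the CArG box, may hold one there.

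Each library held between 25178615 and 32674687 counts, and levels are given as CPM, counts scaled to a common library size, after scaling of library sizes by edgeR's TMM factors, which ran from 0.922 to 1.04. In a principal component analysis the low-glucose-tolerant libraries lay apart from the rest on the first axis (67.7% of the variance), and low-glucose-tolerant replicate 2 stood apart from the other libraries of its group on the second. Of 16 intestinal epithelial markers, 10 were under 1 CPM in every library, among them CDX1, CDX2 and VIL1, while EPCAM, KRT8, KRT18 and KRT19 were above it. Of 8 fibroblast markers, DCN, LUM and PDGFRA were under 1 CPM in every library. The summed fibroblast markers, mostly COL1A1, ran from 2491 to 2532 CPM in the control, from 644 to 750.1 in the CoCl2-tolerant and from 156 to 196 in the low-glucose-tolerant libraries. Leukocyte, endothelial and neuronal markers summed to at most 3.52, 2.03 and 5.74 CPM in any library. The share of mitochondrially encoded genes was 8.08% to 9.80% in the control, 4.64% to 6.67% in the CoCl2-tolerant and 4.74% to 5.20% in the low-glucose-tolerant libraries. The summed intestinal markers ran from 1352 to 1388 CPM in the control, from 1381 to 1677 in the CoCl2-tolerant and from 2493 to 3404 in the low-glucose-tolerant libraries. Over the 3 groups the summed fibroblast markers thus fell while FOS and EGR1 fell. Of the 6 fibroblast markers tested, 0 rose and 3 fell in the CoCl2-tolerant cells (0% and 50%, against 17.9% and 18.2% of all genes). In the low-glucose-tolerant cells DCN, under 1 CPM, rose and COL1A1 and THY1 fell (16.7% and 33.3%, against 34.6% of all genes). The other 3 did not pass there, and the median log2 fold change of the 6 was 0.06. The summed intestinal markers were apart from the control only in the low-glucose-tolerant libraries. In the CoCl2-tolerant cells 1 of the 6 tested rose (KRT19) and 4 fell (EPCAM, GPA33, KRT8 and LGR5). These are 16.7% and 66.7%, against 17.9% and 18.2% of all genes. In the low-glucose-tolerant cells 3 rose (KRT8, KRT18 and KRT19) and 2 fell (GPA33 and LGR5), or 50% and 33.3%, against 34.6% of all genes. The mitochondrial share was lower in both tolerant lines and overlapped between them. The part of these marker and mitochondrial differences in the FOS and EGR1 results was not tested. In bulk RNA, fewer cells that express a gene and less RNA per cell cannot be told apart.

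**Figure D1:**
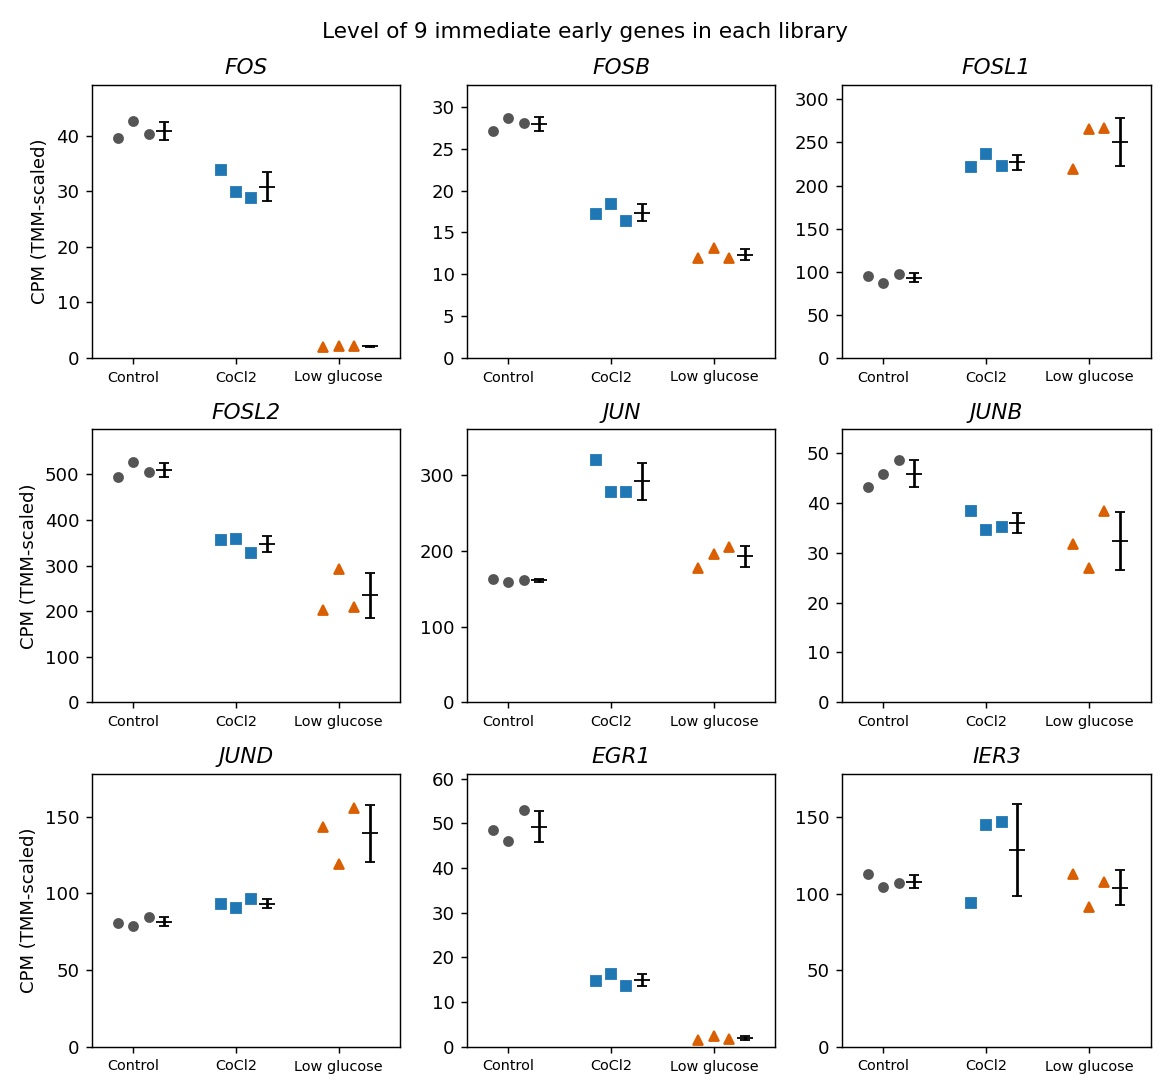
CPM of the 9 immediate early genes in each of the 9 libraries, on linear axes from 0, with 1 panel per gene, a point per library and, beside them, the mean of each group of 3 with a bar of 1 SD. FOS and EGR1 lie near 2 CPM in the low-glucose-tolerant libraries and above 39 CPM in every control library, while FOSL1 is higher in both tolerant lines than in the control.

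Both tolerant lines held less FOS, FOSB, FOSL2, JUNB and EGR1 than the control and more FOSL1 and JUN. In the CoCl2-tolerant cells 2 of the 9 genes were higher and 5 lower by edgeR's quasi-likelihood test at a Benjamini-Hochberg adjusted p under 0.05 over all tested genes, where 36.1% of all genes were called (17.9% higher and 18.2% lower). The 5 lower became 3 without control replicate 2 and 3 without CoCl2-tolerant replicate 3. In the low-glucose-tolerant cells 3 were higher and 5 lower. The JUN call among the 3 higher, at a log2 fold change of 0.25, held under only 7 of 17 alternatives. In this comparison 69.2% of all genes were called (34.6% higher and 34.6% lower). Against a background that wide, the number of genes called says little about this group, and the sizes carry more. EGR1 had the 109th and FOS the 155th lowest log2 fold change of 17902 genes in the low-glucose-tolerant cells. In the CoCl2-tolerant cells EGR1 had the 393rd lowest and FOSL1 the 515th highest. The median log2 fold change of the 9 genes was -0.35 in the CoCl2-tolerant and -0.51 in the low-glucose-tolerant cells, beside 0.01 and -0.01 over all genes tested. The libraries of the tolerant and the control group did not overlap for 8 of the 9 genes in either comparison, where 57.2% and 73.3% of all genes did not overlap. The comparisons share the control libraries, so the like directions of the 2 lines are not independent.

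**Figure D2:**
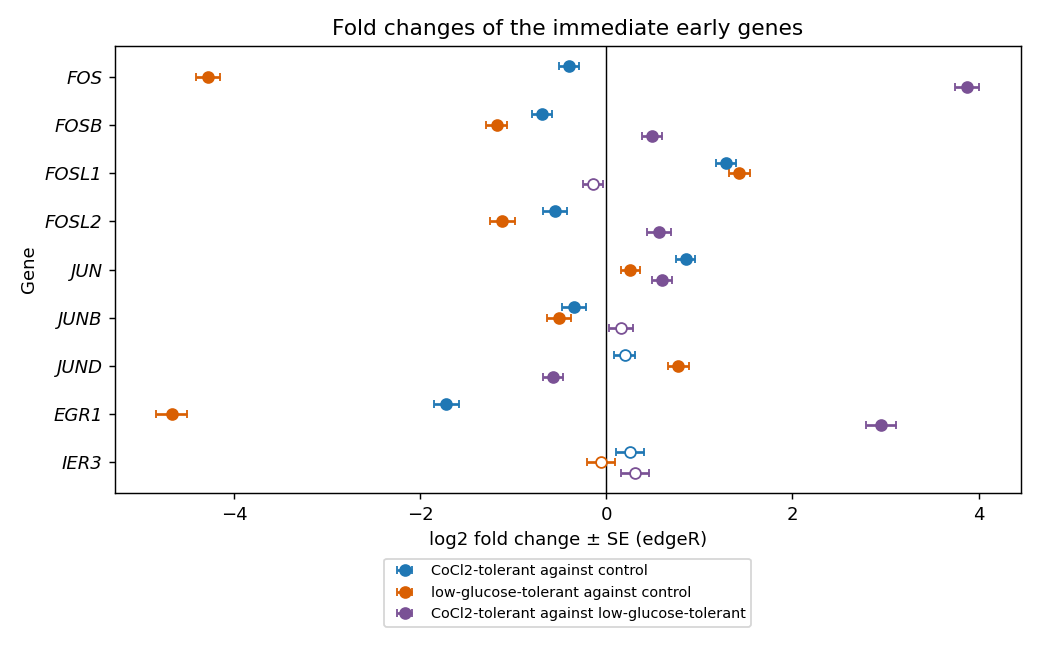
Log2 fold change of each of the 9 genes in the 3 comparisons, with bars of 1 standard error from edgeR, 3 libraries a group; open points did not pass the adjusted p of 0.05. FOS and EGR1 lie at -4.28 and -4.67 in the low-glucose-tolerant cells against the control, whereas the other genes stay within -1.18 and 1.43 in both comparisons with the control.

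FOS (ENSG00000170345, chr14:75278774-75282230 on GRCh38), whose protein pairs with JUN proteins and turns over quickly, fell a little in the CoCl2-tolerant cells and to near the bottom of its range in the low-glucose-tolerant cells. Its level was 39.7, 42.7 and 40.3 CPM in control replicates 1, 2 and 3. It was 33.9, 29.9 and 28.8 CPM in the CoCl2-tolerant libraries and 2.04, 2.19 and 2.06 CPM in the low-glucose-tolerant libraries, the last from 60, 64 and 57 counts. All CoCl2-tolerant libraries lay below all controls, and all low-glucose-tolerant libraries lay far below both. The low-glucose-tolerant level was 19.5-fold lower than the control (log2 fold change -4.28 ± 0.13 SE, edgeR adjusted p = 9.52e-12) and the CoCl2-tolerant level was 14.7-fold higher than the low-glucose-tolerant one (3.88 ± 0.13, edgeR adjusted p = 3.41e-11). Against the control, the CoCl2-tolerant change was -0.41 ± 0.11 (edgeR adjusted p = 0.00907). That call ended without control replicate 2 (edgeR adjusted p = 0.0529) and without CoCl2-tolerant replicate 3 (edgeR adjusted p = 0.0579), in a range of 0.00209 to 0.0579 over 17 alternatives.

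FOSB (ENSG00000125740, chr19:45467995-45475179), the FOS relative that is induced with FOS and whose shortened form persists in cells, fell in both lines. It was at 27.1, 28.7 and 28.1 CPM in the control, 17.2, 18.4 and 16.4 CPM in the CoCl2-tolerant and 12.0, 13.1 and 12.0 CPM in the low-glucose-tolerant libraries. The 3 groups lay apart in that order. FOSB was 1.61-fold lower in the CoCl2-tolerant cells (-0.69 ± 0.11, edgeR adjusted p = 2.25e-04) and 2.27-fold lower in the low-glucose-tolerant cells (-1.18 ± 0.11, edgeR adjusted p = 3.05e-07). The tolerant lines differed from each other by 0.49 ± 0.11 (edgeR adjusted p = 0.00139). In the low-glucose-tolerant cells the fall of FOSB was thus several times smaller than that of FOS. Both windows hold the cAMP response core and TATA letters at nearly the same distance from the start. The part of these sites in either fall was not tested.

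FOSL1 (ENSG00000175592, chr11:65892049-65900573) encodes FRA1, a FOS relative without the transactivation domain of FOS that is long-lived under sustained ERK signalling. It was at 95.6, 86.7 and 97.1 CPM in the control, 221, 237 and 223 CPM in the CoCl2-tolerant and 219, 266 and 267 CPM in the low-glucose-tolerant libraries. Every tolerant library was above every control library, and the tolerant groups overlapped each other. FOSL1 rose 2.44-fold in the CoCl2-tolerant cells (1.29 ± 0.11, edgeR adjusted p = 9.54e-07) and 2.69-fold in the low-glucose-tolerant cells (1.43 ± 0.11, edgeR adjusted p = 4.38e-08). The difference between the tolerant lines was -0.14 ± 0.11, with a 95% interval of -0.37 to 0.09 (edgeR adjusted p = 0.258).

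FOSL2 (ENSG00000075426, chr2:28392448-28417312) encodes FRA2, the other long-lived FOS relative, and moved against FOSL1. It was at 495, 527 and 506 CPM in the control, 356, 358 and 326 CPM in the CoCl2-tolerant and 204, 292 and 209 CPM in the low-glucose-tolerant libraries. The 3 groups did not overlap, and low-glucose-tolerant replicate 2, the library that stood apart, was the highest of its group. FOSL2 fell by 0.55 on the log2 scale (SE 0.13) in the CoCl2-tolerant cells (edgeR adjusted p = 0.00454) and by 1.12 (SE 0.13) in the low-glucose-tolerant cells (edgeR adjusted p = 3.44e-06). The CoCl2-tolerant level was above the low-glucose-tolerant one by 0.56 ± 0.13 (edgeR adjusted p = 0.00172).

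JUN (ENSG00000177606, chr1:58780788-58784327), which encodes the founding JUN protein, rose mainly in the CoCl2-tolerant cells. It was at 164, 160 and 162 CPM in the control, 320, 278 and 277 CPM in the CoCl2-tolerant and 178, 196 and 205 CPM in the low-glucose-tolerant libraries. The 3 groups lay apart, with the CoCl2-tolerant libraries highest. JUN was 1.81-fold higher in the CoCl2-tolerant cells than in the control (0.85 ± 0.10, edgeR adjusted p = 2.38e-05) and 1.51-fold higher than in the low-glucose-tolerant cells (0.60 ± 0.10, edgeR adjusted p = 1.51e-04). The low-glucose-tolerant change against the control was 0.25 ± 0.10 (edgeR adjusted p = 0.0379), and that call ended under 10 of 17 alternatives, in an edgeR adjusted p range of 0.0162 to 0.170. Single libraries that ended it were control replicates 1, 2 and 3 (edgeR adjusted p = 0.0850, 0.109 and 0.0990 without each), CoCl2-tolerant replicate 3 (0.0531) and low-glucose-tolerant replicate 3 (0.0784).

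JUNB (ENSG00000171223, chr19:12791496-12793315), a JUN relative that is a weaker activator and can oppose JUN, was at 43.2, 45.8 and 48.6 CPM in the control. It was at 38.3, 34.6 and 35.1 CPM in the CoCl2-tolerant and 31.7, 26.9 and 38.4 CPM in the low-glucose-tolerant libraries. Both tolerant groups lay below the control and overlapped each other. JUNB fell by 0.51 on the log2 scale (SE 0.13) in the low-glucose-tolerant cells (edgeR adjusted p = 0.00289). The CoCl2-tolerant change was -0.35 ± 0.13 (edgeR adjusted p = 0.0465) and its call ended under 9 of 17 alternatives, in an edgeR adjusted p range of 0.00382 to 0.161. Single libraries that ended it were control replicates 1, 2 and 3 (edgeR adjusted p = 0.0781, 0.111 and 0.161 without each), CoCl2-tolerant replicates 1, 2 and 3 (0.0556, 0.126 and 0.133) and low-glucose-tolerant replicate 1 (0.0501). The tolerant lines differed by 0.16 ± 0.13 (95% interval -0.12 to 0.43, edgeR adjusted p = 0.301), a difference that passed only without low-glucose-tolerant replicate 3, at 0.29 (edgeR adjusted p = 0.0457). Of the JUNB exon bases, 14.2% are shared with HOOK2 on the opposite strand, and the sources used here do not give the strand setting of the counting.

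JUND (ENSG00000130522, chr19:18279760-18281622), the JUN relative least dependent on stimulation, rose in the low-glucose-tolerant cells. It was at 80.7, 79.1 and 84.9 CPM in the control, 93.4, 90.6 and 96.3 CPM in the CoCl2-tolerant and 143, 119 and 155 CPM in the low-glucose-tolerant libraries. The 3 groups did not overlap. JUND was 1.71-fold higher in the low-glucose-tolerant cells than in the control (0.77 ± 0.11, edgeR adjusted p = 2.46e-05) and the CoCl2-tolerant level was below the low-glucose-tolerant one (-0.58 ± 0.11, edgeR adjusted p = 4.05e-04). The CoCl2-tolerant difference from the control was 0.20 ± 0.11 (95% interval -0.04 to 0.43, edgeR adjusted p = 0.183), and it passed only when these 2 groups were fitted alone (edgeR adjusted p = 0.0326).

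EGR1 (ENSG00000120738, chr5:138465490-138469315), a factor that switches on growth factor and matrix genes and its own corepressors, showed a graded fall over the 3 groups. It was at 48.6, 46.1 and 52.9 CPM in the control, 14.8, 16.3 and 13.6 CPM in the CoCl2-tolerant and 1.53, 2.40 and 1.85 CPM in the low-glucose-tolerant libraries. The groups lay far apart. EGR1 was 3.30-fold lower in the CoCl2-tolerant cells (-1.72 ± 0.14, edgeR adjusted p = 4.62e-07) and 25.5-fold lower in the low-glucose-tolerant cells (-4.67 ± 0.16, edgeR adjusted p = 2.78e-11) than in the control. The CoCl2-tolerant level was 7.74-fold above the low-glucose-tolerant one (2.95 ± 0.16, edgeR adjusted p = 2.13e-09). Each of these calls held under all 17 alternatives. FOS and EGR1 thus reached like low levels in the low-glucose-tolerant cells, while in the CoCl2-tolerant cells the EGR1 change was -1.72 and that of FOS -0.41.

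IER3 (ENSG00000137331, chr6:30743199-30744554) was the only one of the 9 genes with no call in any comparison. It was at 113, 104 and 107 CPM in the control, 93.7, 145 and 147 CPM in the CoCl2-tolerant and 113, 91.1 and 108 CPM in the low-glucose-tolerant libraries. CoCl2-tolerant replicate 1 lay below every control library, replicates 2 and 3 lay above them, and so the groups overlapped. The CoCl2-tolerant difference from the control was 0.25 ± 0.15 (95% interval -0.07 to 0.58, edgeR adjusted p = 0.210) and became 0.44 without CoCl2-tolerant replicate 1 (edgeR adjusted p = 0.0117, in a range of 0.0117 to 0.552). The low-glucose-tolerant difference was -0.06 ± 0.15 (95% interval -0.38 to 0.27, edgeR adjusted p = 0.755). Between the tolerant lines it was 0.31 ± 0.15 (edgeR adjusted p = 0.0889), and without CoCl2-tolerant replicate 1 it was 0.49 (edgeR adjusted p = 0.00244, in a range of 0.00244 to 0.321). It also passed with library totals (0.41, edgeR adjusted p = 0.0405) and with the stricter filter (0.39, edgeR adjusted p = 0.0383). Of the IER3 exon bases, 26.5% are shared with IER3-AS1 on the opposite strand.

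Between the tolerant lines, 5 of the 9 genes were higher in the CoCl2-tolerant cells (FOS, FOSB, FOSL2, JUN and EGR1), JUND was lower, and FOSL1, JUNB and IER3 did not pass, where 63.9% of all genes were called (31.9% higher and 32.0% lower). The libraries did not overlap for 6 of the 9 genes, against 63.1% of all genes.

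Per kilobase of exon, the order of the genes differed between groups. In the control cells IER3 was highest at 79.6 CPM per kb, followed by FOSL2 at 71.2, while FOSL1 at 49.3, JUN at 45.7 and JUND at 43.8 overlapped from each neighbour to the next. JUNB at 25.2, EGR1 at 15.7, FOS at 12.6 and FOSB at 5.04 CPM per kb followed, each apart from its neighbour. In the CoCl2-tolerant cells FOSL1 was highest at 120.3 CPM per kb, IER3 at 94.7 and JUN at 82.4 overlapped, and JUND at 50.2 overlapped FOSL2 at 48.5. JUNB at 19.8, FOS at 9.54, EGR1 at 4.76 and FOSB at 3.12 CPM per kb stood apart in that order. In the low-glucose-tolerant cells FOSL1 was highest at 132.9 CPM per kb, IER3 at 76.6 overlapped JUND at 74.8, and JUN at 54.5, FOSL2 at 32.8, JUNB at 17.8 and FOSB at 2.23 followed. FOS at 0.648 and EGR1 at 0.613 CPM per kb overlapped at the bottom. With the length of the longest transcript in place of summed exons, FOS at 19.0 lay above EGR1 at 15.7 in the control and FOSL2 at 51.7 above JUND at 50.2 in the CoCl2-tolerant cells.

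**Figure D3:**
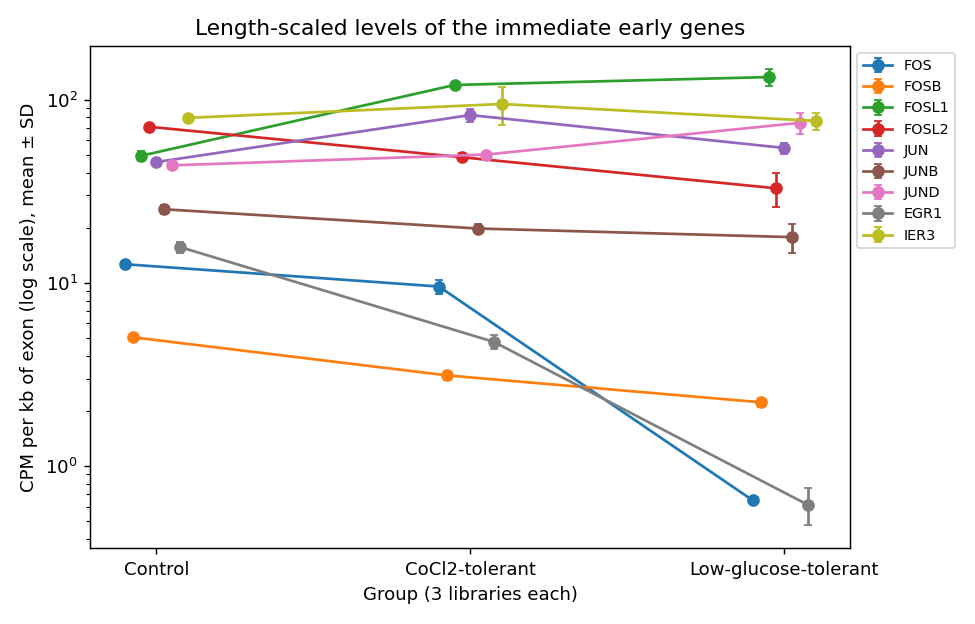
Level of each gene per kilobase of exon in the 3 groups, on a log axis, as the mean of 3 libraries with bars of 1 SD; a line joins the means of 1 gene and implies no order of the groups. FOSL1 moves from 49.3 to 120.3 and 132.9 CPM per kb, while FOS and EGR1 end at 0.648 and 0.613.

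Within the FOS family, FOSL1 took over from FOSL2 as the most abundant mRNA in both tolerant lines. FOSL1 made up 35.7% ± 2.08 (SD, n = 3) of the family's summed CPM per kb in the control, 66.3% ± 1.26 in the CoCl2-tolerant and 78.9% ± 2.62 in the low-glucose-tolerant cells. FOSL2 made up 51.5% ± 1.63, 26.7% ± 0.825 and 19.4% ± 2.61, FOS 9.14%, 5.26% and 0.387%, and FOSB 3.65%, 1.72% and 1.33%. These shares did not overlap between any pair of groups for any of the 4 genes. The family's sum was 138 ± 1.38 CPM per kb in the control, 181 ± 6.29 in the CoCl2-tolerant and 169 ± 19.3 in the low-glucose-tolerant cells, so the sum was higher in every tolerant library than in the controls while FOS and FOSB were lower. With the longest transcript as length, the FOS share in the control was 12.0% and that of FOSL1 35.3%.

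In the JUN family JUN led in the CoCl2-tolerant cells and JUND in the low-glucose-tolerant cells. JUN made up 39.8% ± 1.05 (SD, n = 3) of the family's CPM per kb in the control, 54.0% ± 1.75 in the CoCl2-tolerant and 37.2% ± 3.53 in the low-glucose-tolerant cells, where its range overlapped that of the control. JUND made up 38.2% ± 0.478, 33.0% ± 1.81 and 50.8% ± 2.80, with no overlap. JUNB made up 21.98% ± 0.899, 12.98% ± 0.0564 and 12.0% ± 0.974. The JUN family's sum was 115 ± 2.88, 152 ± 8.07 and 147 ± 14.4 CPM per kb in the 3 groups. The shares describe mRNA, and neither the proteins nor the dimers were measured.

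**Figure D4:**
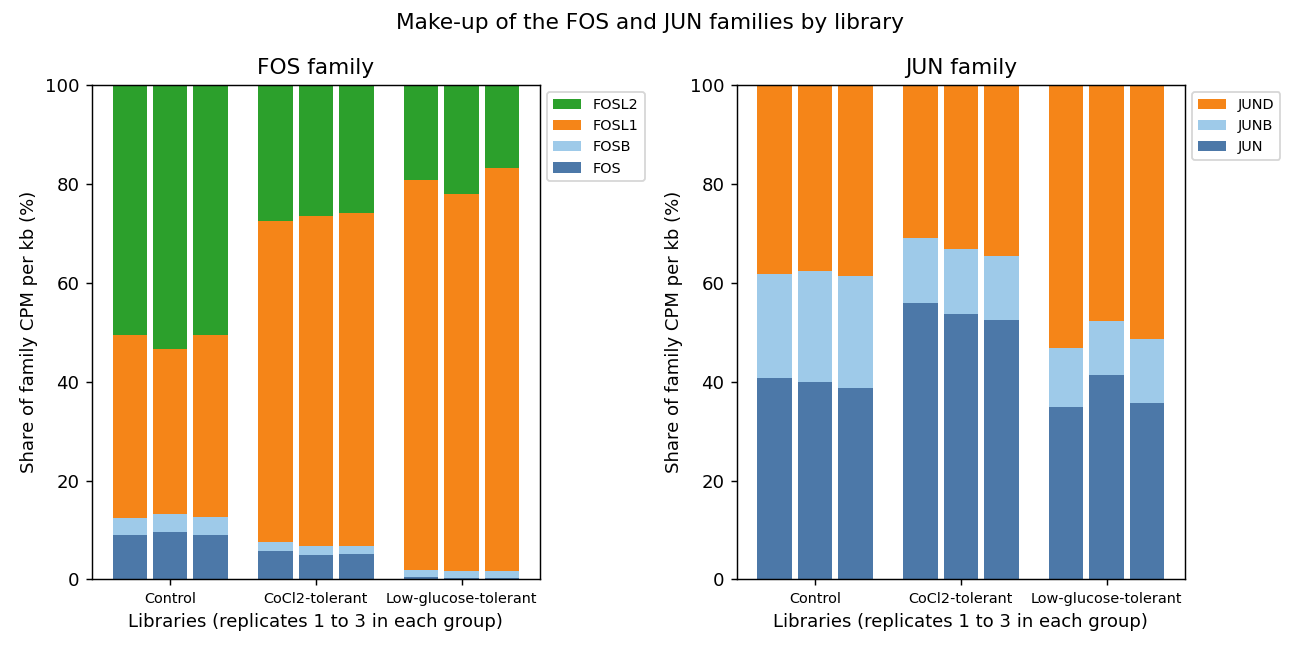
Share of each member in the summed CPM per kb of the FOS family and of the JUN family, in percent, as 1 stacked bar per library with replicates 1 to 3 side by side in each group. On average FOSL1 goes from 35.7% in the control to 66.3% and 78.9%, and JUND leads the JUN family at 50.8% in the low-glucose-tolerant cells.

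The other leucine zipper proteins that pair or compete with FOS and JUN proteins were higher than in the control wherever they were called. Of 10 tested, 4 rose and 0 fell in the CoCl2-tolerant cells (40.0% and 0%, against 17.9% and 18.2% of all genes), with a median log2 fold change of 0.42. In the low-glucose-tolerant cells 7 rose and 0 fell (70.0% and 0%, against 34.6% and 34.6% of all genes), with a median of 0.99. ATF3, a stress-induced factor that is also an immediate early gene, rose from 23.1 CPM in the control to 60.2 in the CoCl2-tolerant and 297 in the low-glucose-tolerant cells (1.38 ± 0.11 and 3.68 ± 0.12). MAFF, a small MAF protein without a transactivation domain, was at 4.18, 6.34 and 57.0 CPM. MAFG, of the same kind, rose from 58.5 to 106.7 CPM in the CoCl2-tolerant and 198 CPM in the low-glucose-tolerant cells, and JDP2, a repressor of AP-1, from 22.6 to 34.2 and 49.2 CPM. BATF2, of the BATF group, was low throughout, at 0.449, 0.258 and 1.55 CPM. ATF3 and MAFF thus rose in the line in which FOS and EGR1 were lowest.

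Of the 32 other immediate early genes tested, 13 rose and 5 fell in the CoCl2-tolerant cells (40.6% and 15.6%, against 17.9% and 18.2% of all genes). In the low-glucose-tolerant cells 12 rose and 10 fell (37.5% and 31.2%), which is close to the 34.6% and 34.6% of all genes. PPP1R15A, which encodes the eIF2alpha phosphatase subunit GADD34, rose from 30.8 CPM to 145 and 445 CPM. KLF2, a Kruppel-like factor, was at 2.85 CPM in the control, 3.33 in the CoCl2-tolerant and 20.6 in the low-glucose-tolerant cells. NR4A1, an orphan nuclear receptor induced along with FOS, fell from 9.57 CPM to 2.94 CPM in the CoCl2-tolerant (-1.71 ± 0.17, edgeR adjusted p = 4.37e-06) and to 4.16 CPM in the low-glucose-tolerant cells. IER5L rose from 9.23 to 27.1 CPM in the CoCl2-tolerant and 19.8 CPM in the low-glucose-tolerant cells, and another gene overlaps 39.2% of its exon bases.

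Of the EGR family and its corepressors, EGR2 and NAB1 fell in both lines and NAB2 did not pass in any comparison, so 2 of 3 tested (66.7%) fell, against 18.2% of all genes in the CoCl2-tolerant and 34.6% in the low-glucose-tolerant cells. EGR2 was low throughout, at 1.27 CPM in the control, 0.671 in the CoCl2-tolerant and 0.247 in the low-glucose-tolerant cells. NAB1, a corepressor of EGR proteins, was at 27.5, 15.4 and 20.3 CPM. The CoCl2-tolerant call of EGR2 (-0.91 ± 0.32, edgeR adjusted p = 0.0364) ended without any 1 of the control or CoCl2-tolerant libraries, at an edgeR adjusted p of 0.0570, 0.0865 and 0.142 without control replicates 1, 2 and 3 and 0.0867, 0.0873 and 0.0826 without CoCl2-tolerant replicates 1, 2 and 3. The low-glucose-tolerant call of NAB1 (-0.44 ± 0.16, edgeR adjusted p = 0.0258) ended without control replicate 1 (0.0807) or 2 (0.0641) and without low-glucose-tolerant replicate 2 (0.0571) or 3 (0.118).

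Upstream of these genes, most of a list of DUSP, Sprouty and SPRED genes rose in the low-glucose-tolerant cells. The list holds feedback inhibitors that ERK signalling induces but was not limited to them. Of 13 DUSP, Sprouty and SPRED genes tested, 10 rose (76.9%, against 34.6% of all genes) and 2 fell (15.4%, against 34.6%) in that line, with a median of 0.89. In the CoCl2-tolerant cells 6 rose (46.2%, against 17.9% of all genes), 2 fell (15.4%, against 18.2%) and 5 did not pass, with a median of 0.45. DUSP6, the ERK phosphatase, rose from 4.47 CPM to 10.6 and 33.9 CPM, and another gene overlaps 40.5% of its exon bases. DUSP5, the nuclear ERK phosphatase, rose from 17.6 to 36.4 and 96.9 CPM, and SPRY4, an inhibitor of receptor signalling to ERK, was at 1.78, 2.24 and 16.3 CPM. The related inhibitors SPRY2 and SPRED3 were at 12.5 and 4.04 CPM in the control, 17.1 and 4.54 CPM in the CoCl2-tolerant and 55.0 and 14.8 CPM in the low-glucose-tolerant cells, while SPRY1 was highest in the CoCl2-tolerant cells, at 2.24, 5.83 and 3.17 CPM in the 3 groups. The 2 falls in the CoCl2-tolerant cells, DUSP8 and DUSP16, were reduced to 1 without any 1 control library and to 0 without CoCl2-tolerant replicate 3. Transcripts of most of these genes and of FOSL1 were thus higher in the low-glucose-tolerant cells, in which FOS and EGR1 were lower. The 2 that fell in that line were DUSP1 and DUSP8, and DUSP1 rose in the CoCl2-tolerant cells.

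Among 26 kinases of the pathways to AP-1 and EGR, 4 rose and 4 fell in the CoCl2-tolerant cells (15.4% each, against 17.9% and 18.2% of all genes) and 12 rose and 9 fell in the low-glucose-tolerant cells (46.2% and 34.6%, against 34.6% and 34.6% of all genes). MAP2K1, which encodes the ERK kinase MEK1, rose from 44.5 to 85.2 CPM in the CoCl2-tolerant cells and was at 40.0 CPM in the low-glucose-tolerant cells. RPS6KA2, an ERK-activated kinase of the RSK family, was at 1.04, 1.20 and 25.4 CPM, and rose in the low-glucose-tolerant cells by 4.60 ± 0.21 on the log2 scale (edgeR adjusted p = 3.07e-10). HRAS, a RAS gene, rose from 23.0 to 42.1 and 39.2 CPM. MAP2K5, the kinase of MAPK7, was at 14.9, 16.0 and 39.4 CPM, and MAPK7 itself, which encodes ERK5, at 34.7, 53.6 and 24.4 CPM. MAP2K6, a p38 kinase kinase, fell from 10.4 to 7.38 and 4.90 CPM, and MAPK10, which encodes JNK3, was at 8.32, 5.31 and 7.81 CPM.

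Of 13 listed regulators of immediate early genes, 0 rose and 3 fell in the CoCl2-tolerant cells. These are 0% and 23.1%, against 17.9% and 18.2% of all genes. In the low-glucose-tolerant cells 4 rose and 2 fell (30.8% and 15.4%, against 34.6% and 34.6% of all genes). SRF, serum response factor, fell from 76.7 CPM to 55.4 CPM in the CoCl2-tolerant cells (-0.47 ± 0.11, edgeR adjusted p = 0.00347) and was at 60.7 CPM in the low-glucose-tolerant cells, where its call ended without control replicate 3 (edgeR adjusted p = 0.0107, then 0.0515). ELK3, a partner of SRF at CArG boxes, rose from 85.9 to 185 CPM in the low-glucose-tolerant cells. The SRF coactivators MRTFA and MRTFB were at 88.2 and 43.4 CPM in the control, 73.1 and 24.5 CPM in the CoCl2-tolerant and 51.7 and 37.2 CPM in the low-glucose-tolerant cells. ETS2, an ETS factor, was at 37.4, 26.7 and 38.6 CPM, CREM, of the CREB family, at 8.54, 8.50 and 16.5 CPM, and the coactivator gene CREBBP at 176, 145 and 223 CPM. Without low-glucose-tolerant replicate 2 the falls in the CoCl2-tolerant cells became 6 and the rises 1, and the falls in the low-glucose-tolerant cells became 4. Without low-glucose-tolerant replicate 3 the rises in the low-glucose-tolerant cells became 8 and those in the CoCl2-tolerant cells 1, and without control replicate 3 the falls in the low-glucose-tolerant cells became 1.

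Of 21 textbook targets of AP-1 tested, 9 were higher and 3 lower in the CoCl2-tolerant cells (42.9% and 14.3%, against 17.9% and 18.2% of all genes). In the low-glucose-tolerant cells 13 were higher and 5 lower (61.9% and 23.8%, against 34.6% and 34.6% of all genes). HMOX1, heme oxygenase 1, rose from 53.6 CPM to 1809 and 1382 CPM, and CXCL8, the chemokine IL-8, from 6.43 to 16.9 and 81.7 CPM. HMGA1, an architectural chromatin protein, was at 220 CPM in the control, 160 in the CoCl2-tolerant and 2474 in the low-glucose-tolerant cells. MMP1 rose in the low-glucose-tolerant cells from 0.168 to 2.29 CPM, and MMP9, a gelatinase, was at 2.11 CPM in the control and 0.629 CPM in the CoCl2-tolerant cells, a call (edgeR adjusted p = 0.0201) that ended without control replicate 3 (0.0632) and without CoCl2-tolerant replicates 1 (0.0731) or 3 (0.0523).

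Of 14 textbook targets of EGR1 tested, 4 rose and 3 fell in the CoCl2-tolerant cells (28.6% and 21.4%, against 17.9% and 18.2% of all genes) and 6 rose and 5 fell in the low-glucose-tolerant cells (42.9% and 35.7%, against 34.6% and 34.6% of all genes). The shares that fell lie near those of all genes. THBS1, the matrix protein thrombospondin 1, was at 7711 CPM in the control, 4965 in the CoCl2-tolerant and 1201 in the low-glucose-tolerant cells, and PDGFB, a growth factor chain, at 362, 181 and 68.0 CPM, so these 2 were graded as EGR1 was. GDF15, a stress-induced cytokine, rose against that order, from 106 to 354 and 897 CPM. NDRG1, a hypoxia-induced gene, rose from 114 to 541 CPM in the CoCl2-tolerant and 379 CPM in the low-glucose-tolerant cells. F3, tissue factor, was at 2.53, 8.41 and 1.80 CPM in the 3 groups, and ICAM1, an adhesion molecule with 23.6% of its exon bases overlapped by other genes, at 1.02, 0.728 and 2.89 CPM.

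Of 12 genes of NF-kappaB and survival control around IER3, 6 rose and 1 fell in the CoCl2-tolerant cells (50% and 8.33%, against 17.9% and 18.2% of all genes) and 6 rose and 2 fell in the low-glucose-tolerant cells (50% and 16.7%, against 34.6% and 34.6% of all genes). REL, an NF-kappaB subunit with 43.3% of its exon bases overlapped by another gene, had the largest change of the list in the CoCl2-tolerant cells, at 6.44 CPM in the control, 1.69 in the CoCl2-tolerant and 3.08 in the low-glucose-tolerant cells (-1.92 ± 0.31 and -1.06 ± 0.29, edgeR adjusted p = 3.00e-04 and 0.00457). BCL2L1, which encodes the survival protein BCL-XL, rose from 201 CPM to 298 and 463 CPM, with 43% of its exon bases overlapped by another gene, and RELB, another NF-kappaB subunit, was at 26.7, 37.4 and 70.3 CPM. The inhibitors of the pathway TNFAIP3 and NFKBIE were at 10.4 and 7.51 CPM in the control, 18.4 and 10.2 CPM in the CoCl2-tolerant and 12.6 and 21.9 CPM in the low-glucose-tolerant cells. The 6 rises in the CoCl2-tolerant cells became 2 without control replicate 1 or 3, and 3 without control replicate 2 or CoCl2-tolerant replicate 1 or 3. The 2 falls in the low-glucose-tolerant cells became 1 without control replicate 3.

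Heat shock genes, which also respond to handling of cells, were followed as a check. Of 12 tested, 8 rose and 1 fell in the low-glucose-tolerant cells (66.7% and 8.33%, against 34.6% and 34.6% of all genes), and 1 rose and 1 fell in the CoCl2-tolerant cells (8.33% each, against 17.9% and 18.2% of all genes). Their summed level was 4383 to 4693 CPM in the control, 4475 to 4520 in the CoCl2-tolerant and 5818 to 6638 in the low-glucose-tolerant libraries. HSPA6, the strictly inducible HSP70 gene, was at 0.247, 0.338 and 38.0 CPM, and HSPA1A, another inducible HSP70 gene, at 6.04, 6.08 and 59.4 CPM, a value that is uncertain because its near-identical copy HSPA1B can share its reads. They were thus high in the line in which FOS and EGR1 were lowest, and their part in that fall was not tested. The CoCl2-tolerant calls of DNAJA1 (0.34 ± 0.10, edgeR adjusted p = 0.0161) and HSPH1 (-0.30 ± 0.11, edgeR adjusted p = 0.0430) both ended without any 1 control library or CoCl2-tolerant replicate 3, and the HSPH1 call also without CoCl2-tolerant replicate 1 or 2, with an edgeR adjusted p of up to 0.0815 and 0.158.

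**Figure D5:**
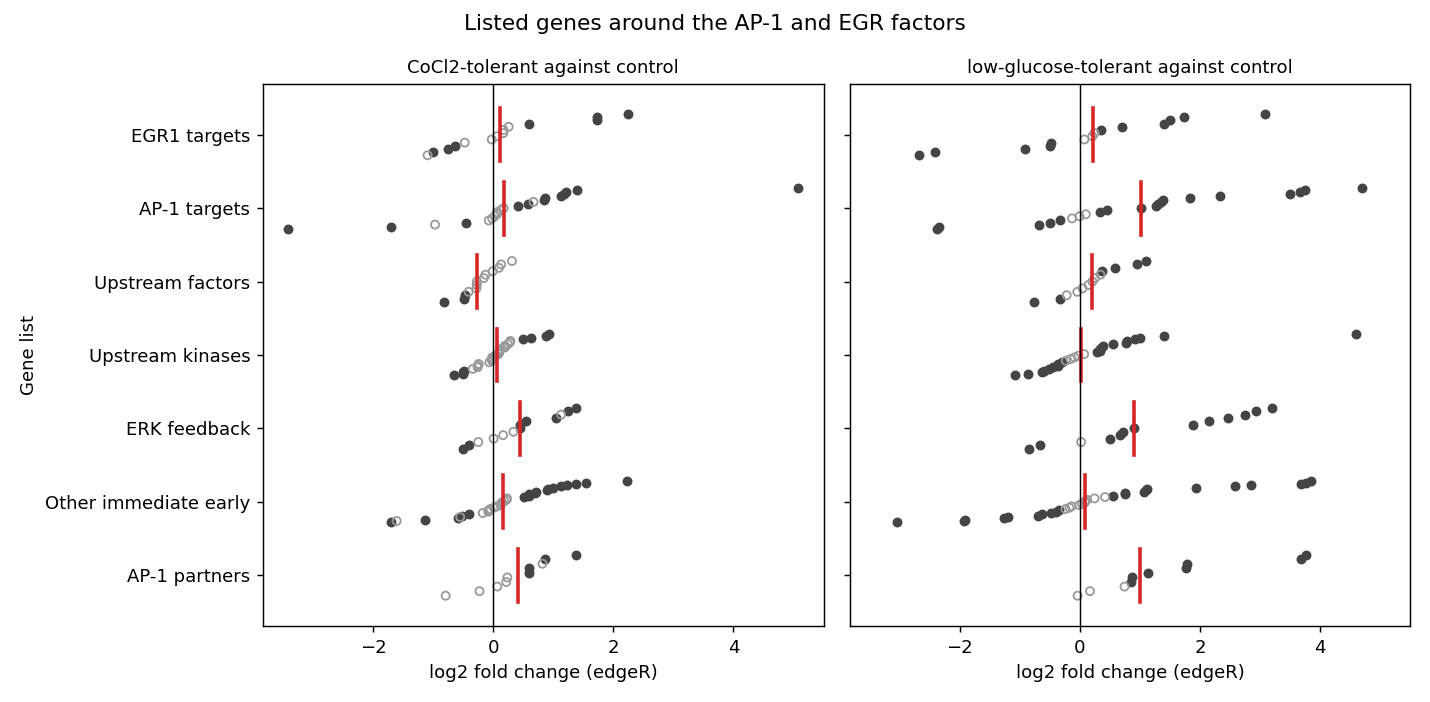
Log2 fold changes of the genes of 7 lists in the CoCl2-tolerant and the low-glucose-tolerant cells against the control, a point per gene tested, filled where the gene passed the test, with the list's median as a red line. The medians of the AP-1 partners are 0.42 and 0.99. Those of the DUSP, Sprouty and SPRED genes, labelled ERK feedback, are 0.45 and 0.89. FOS and EGR1, at -4.28 and -4.67 in the low-glucose-tolerant cells, are on none of these lists and are not drawn.

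The genes most alike in pattern were sought among 10587 protein-coding genes by Pearson's r of log2 CPM over the 9 libraries, which fall into 3 groups, so that r describes mainly the 3 group levels. GPC4, a cell surface glypican, and SUGP2 were most like FOS (r = 0.999 for each), with GPC4 at 241 CPM in the control, 175 in the CoCl2-tolerant and 16.8 in the low-glucose-tolerant cells. STX11 and SLFN13 were most like EGR1 (r = 0.999 and 0.998), with STX11 at 36.6, 23.8 and 11.7 CPM. TRIM16L and DGKG were most like FOSL1 (r = 0.990 and 0.986), with TRIM16L at 137, 310 and 337 CPM. WDR45B and GAPDH were most like JUN (r = 0.993 and 0.991), with GAPDH, a glycolytic enzyme, at 5464, 11553 and 7260 CPM. TPD52 and MRPL35 were most like IER3 (r = 0.954 and 0.936). As many as 767 genes had an r over 0.95 with FOS and 593 with EGR1, against 123 with FOSL1, 47 with JUN and 1 with IER3.

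Among the 9 genes themselves, over the same 9 libraries, FOS, FOSB, FOSL2 and EGR1 moved together and against JUND. The r of EGR1 was 0.956 with FOS, 0.966 with FOSB, 0.965 with FOSL2 and -0.96 with JUND. FOSL1 ran against FOSB (r = -0.92) and less against FOS (r = -0.64), and IER3 had no r beyond 0.329 in size with any of the others. The libraries share their groups and scaling, so these values describe the 3 groups and carry no test.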

How the data were processed

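RNA-seq of mRNA from 9 HCT-15 libraries was used, 3 per group. The deposited values are counts per gene; the submitters' processing notes name the counter featureCounts, the build GRCh38 and DESeq2. The sources used here do not name the aligner, the annotation release or the strand setting, which count as not given. Ensembl identifiers were paired with symbols for 35938 genes through a gene name table and 76 more through GENCODE release 29, which also gave exon lengths and positions. edgeR 4.0.16 in R 4.3.3 was run on all 9 libraries in one fit: filterByExpr by group kept 17902 genes, TMM scaled the libraries, and quasi-likelihood tests were adjusted by Benjamini-Hochberg over all 17902 genes with a threshold of 0.05. Standard errors are the log2 fold change divided by the root of the F statistic, and 95% intervals use the same error. The common biological coefficient of variation was 12.6%. With 3 counts taken as the limit of a library, levels under 0.0918 to 0.119 CPM are not distinguishable from 0, for counting error only.

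The genes and lists were chosen with earlier results of these data known. The text names the 9 genes and, from each list, up to 3 genes per comparison with the largest absolute change among those called. Only genes at 1 CPM or more in the higher group were eligible. Also named are the 2 genes most alike in pattern to FOS, FOSL1, JUN, EGR1 and IER3 at a mean of 5 CPM or more. DUSP1, DUSP8, DUSP16 and NAB2 were named to account for a count. MMP13 and CEACAM5, also on the lists, were not analysed here. An AP-1 target that the rule would name is not reported here. Alternatives were DESeq2 1.42.0 size factors and Wald test, library totals, leaving out mitochondrially encoded genes, no filter or a stricter filter (5 CPM in 3 libraries), fits of 2 groups, a replicate block and leaving out each library. Where this leaves a group with 2 libraries, the spread is pooled over groups. The test was run on simulated counts in which only a small part of the genes, all well counted, was changed. Of the genes called, 6.79% and 5.23% were unchanged ones in the CoCl2-tolerant and low-glucose-tolerant comparisons with the control. Between the tolerant lines this share was 4.07%. Of genes changed 2-fold, 94.0% were recovered in each comparison. Of genes changed 1.5-fold, 32.8% were recovered in the CoCl2-tolerant comparison with the control (17405 genes). In the low-glucose-tolerant comparison with the control it was 50.7% (17412 genes). In the real data far more genes were called, so these shares need not hold there or for low counts. No 2 libraries agreed within sampling noise: chi-square per degree of freedom between libraries of a group ran from 2.31 to 74.1.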

Additional observations from a re-analysis of the deposited data

How the results depend on the processing

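Of 459 member fold changes recomputed under alternatives, 431 kept their direction and side of the threshold, 21 lost and 6 gained a call, and 1 reversed: IER3 in the low-glucose-tolerant cells against the control was 0.0378 without low-glucose-tolerant replicate 2 (edgeR adjusted p = 0.836). The number of genes called lower in the CoCl2-tolerant cells, 5, ran from 3 to 5 when single libraries were left out; it was 3 without control replicate 2 and 3 without CoCl2-tolerant replicate 3, which ended the calls of FOS and JUNB. The cause was not tested. The replicate numbers only share a label: residuals of same-numbered libraries correlated between -0.19 and 0.0985. With the replicate number as a block, the JUNB fall in the CoCl2-tolerant cells became -0.35 (edgeR adjusted p = 0.0564) and the JUN rise in the low-glucose-tolerant cells 0.26 (edgeR adjusted p = 0.0708), and no other member call changed. Scaling by library totals moved the median of all genes in the low-glucose-tolerant cells from -0.01 to -0.11 and that between the tolerant lines from 0.01 to 0.10, and beside that median the JUN change in the low-glucose-tolerant cells was 0.15 (edgeR adjusted p = 0.154). With the longest transcript as length, 8 of 12 FOS family shares moved by more than 1 SD and 0 of 9 JUN family shares did. With 3 libraries a group, 32.8% of simulated 1.5-fold changes were recovered in the CoCl2-tolerant comparison with the control. Only a small part of the genes, all well counted, was changed in that simulation.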
